A study of Bos taurus with 12 samples.

Results

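The set described here holds 38 genes of the cell division cycle, measured in the biceps brachii of 12 bulls by 1-colour Agilent microarray. Its members were chosen by name: 7 control the passage out of G1, the growth phase before DNA synthesis, 14 act in S phase, when DNA is copied, and 17 act in mitosis. A probe was found for 37 of the 38, through its gene number, its accession, its symbol or the human gene it was matched to, and MKI67, the gene of the proliferation marker Ki-67, had none under these routes. Where a member had several probes, the probe with the highest mean over the 12 arrays stood for it. Of the 13653 genes tested, 29 were members.

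The study held 24 male animals aged 18 to 20 months, divided at random into 3 groups of 8, and the 4 muscle samples of highest RNA quality in each group were hybridised, 1 animal per array. Control bulls were untreated. The dexamethasone group received 0.75 mg per head of this synthetic glucocorticoid in the feed for 42 days. The combination group received 0.66 mg of dexamethasone per head for 21 days together with clenbuterol, a beta-adrenergic agonist, in a course of 28 days that began at 2 mg per head in the first week, was 4 mg in the second and 6 mg in the last 2. Besides clenbuterol, the treated groups thus differed in how much dexamethasone they received and for how long. P-values weigh group differences against the spread between these selected animals.

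A cell enters the cycle when cyclin-dependent kinases, CDK4 and CDK6 and then CDK2 with cyclin E, phosphorylate the retinoblastoma protein RB1, which releases E2F transcription factors. E2F targets include the enzymes that make deoxynucleotides and the factors, CDC6 and CDT1, that load the ring of MCM2 to MCM7 onto replication origins. Mitosis is started by CDK1 with cyclin B and ended when CDC20 directs the anaphase-promoting complex against cyclin B. Muscle fibres of adult animals are post-mitotic, so that a muscle biopsy normally holds few cycling cells, which belong to other cell types or to the satellite cells that repair fibres. In bulk tissue a lower number of cycling cells and less RNA per cell cannot be told apart. Of 11 fibre marker genes, such as ACTA1 and CKM, 9 had a probe and all 9 were tested. The limma test called 0 of them in any comparison. After dexamethasone 1 had an unadjusted p under 0.05, beside 12.3% of all genes. Such comparisons between groups do not show which tissue was sampled or how its cell mix varied between bulls.

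Levels are log2 signals relative to the array's 75th percentile, listed in the order of replicates 1 to 4, which are only names given to the bulls. A gene was tested if its probe was well above background, by the scanner software's own flag, on at least 4 of the 12 arrays. Between 53.2% and 68.7% of spots on an array carried that flag. Scan day 2 held 7 arrays, namely control replicate 4 and replicates 1 to 3 of both treated groups, and their negative-control signal was 67.3 to 92.5 against 30.8 to 43.7 on the other 5. Differences among those 7 arrays are given as differences within scan day 2, and their control side is a single array. Dexamethasone replicate 1 stood apart from the other 3 dexamethasone bulls in several members, and results that change without it are given both ways. This bull was singled out from the values of these same genes, so that calls made without it are no independent support.

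Of the 37 members with a probe, 17 were well above background on all 12 arrays. These were 4 of 7 G1 control members, 10 of 14 S phase members and 3 of 16 mitosis members. BUB1 and BUB1B, kinases of the spindle checkpoint, CENPF, a kinetochore protein, and E2F1 were well above background on 0 arrays. CDK1, CDK6, CCNB1 and CCNB2 were so on 2 or 3 arrays and were not tested either. These 8 probes were all higher on average on scan day 2 than on the other days. The share of members with a probe that could be tested was 78.4%, beside 69.3% of all genes and unnamed features with a probe. Of the 29 tested members, 0 were well above background in only 1 group, but some reached 4 arrays only with the combination bulls. In control, dexamethasone and combination bulls, CDC6 and CDC20 were well above background in 1, 1 and 2. For MCM3 these counts were 1, 2 and 2, and for RRM2 2, 1 and 3. CCNE1, with counts of 3, 1 and 2, reached 4 arrays only with the controls.

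No member passed the limma test at an adjusted p under 0.05 in any of the 3 comparisons. For dexamethasone against control, 84 genes were called (0.615% of those tested), 80 of them lower, and 0 were members. At an unadjusted p under 0.05, 1685 genes passed (12.3%), among them 6 members: MCM3 and TK1 were higher and CDC25B, CDK2, MCM7 and PCNA lower. The values of the groups did not overlap for 880 genes (6.45%) and for 2 members, TK1 and MCM7. As shares of the 29 members these are 20.7% and 6.90%, the second close to that of all genes. Self-tests of the fit on simulated data recovered 44.1% of genes changed by 1 on the log2 scale and 86.2% of genes changed by 2 in this comparison. The changed genes were drawn from all genes, with independent noise of each gene's own spread, so these rates are averages over all genes. They do not give the rate for the mitosis members, whose median SD within groups was 0.61 beside 0.35 over all genes.

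For the combination against control, 6 genes were called (0.0439%) and 0 were members. At an unadjusted p under 0.05, limma gave 1656 genes (12.1%), 953 of them higher in the combination. Among them were 5 members (17.2%), AURKA, CDC20, CDC6, MCM3 and RRM2, and all 5 were higher. Groups did not overlap for 1124 genes (8.23%) and for 3 members (10.3%), CDC20, CDC6 and MCM3. Between the treated groups, 2 genes were called (0.0146%) and 0 were members. Here 1504 genes (11.0%) and 7 members (24.1%), CDC20, CDC25B, CDC6, CDK2, MCM4, RRM2 and TOP2A, had an unadjusted limma p under 0.05. All 7 were higher in the combination, as were 913 of the 1504 genes. Non-overlap was seen for 725 genes (5.31%) and for 1 member (3.45%), MCM7. The 2 comparisons against control share the control bulls, and both that include dexamethasone alone share those bulls. Both that include the combination share the combination bulls, so that the comparisons are not independent of each other. Under 10 other processing settings, the number of members called was 0 in all 3 comparisons. These settings called 0 to 85, 0 to 6 and 0 to 3 genes in total, so that 0 members says little for the last 2. With dexamethasone replicate 1 left out, 1 member was called for dexamethasone against control and 2 between the treated groups.

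**Figure D1:**
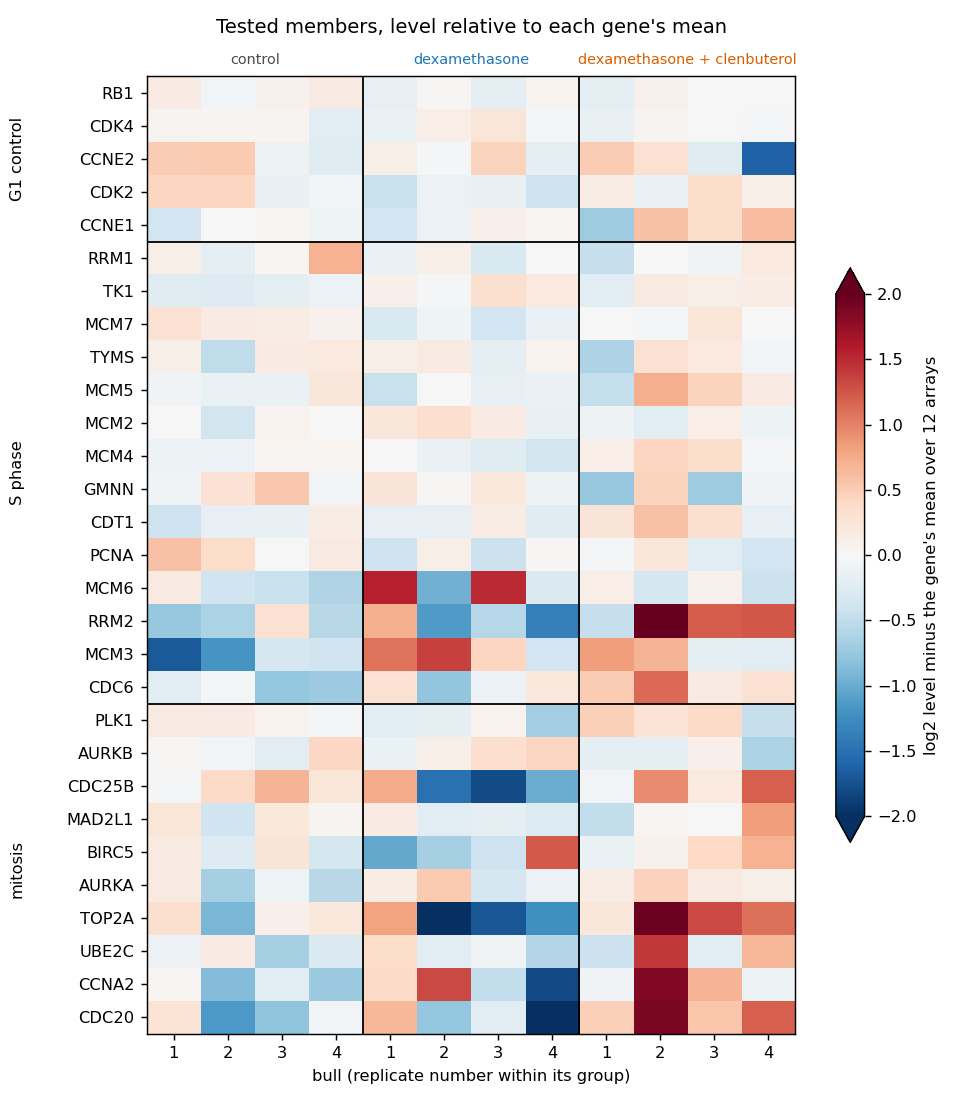
Level of each of the 29 tested members in each of the 12 bulls, as the difference on the log2 scale from that gene's mean over all arrays. Red is higher and blue lower, columns are bulls by group and rows are genes by role. Combination replicate 2 was the highest of the 12 bulls for 10 members; combination replicate 1 was the lowest for 6 and dexamethasone replicate 4 for 5.

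The G1 control genes varied least, with a median SD within groups of 0.23 beside 0.35 over all genes. CDK4, a cyclin D partner, read -0.09, -0.09, -0.08 and -0.35 in controls, -0.27, 0.01, 0.11 and -0.17 after dexamethasone and -0.29, -0.07, -0.14 and -0.18 after the combination. The 3 groups overlapped, and all values lay within 0.46 of each other. Its difference from control was 0.07 ± 0.14 (SE) after dexamethasone, with a 95% interval of -0.23 to 0.37, and -0.02 ± 0.14 after the combination, interval -0.32 to 0.29. RB1, the brake on E2F, read 0.63, 0.41, 0.54 and 0.62 in controls, 0.29, 0.49, 0.27 and 0.53 after dexamethasone and 0.29, 0.55, 0.47 and 0.47 after the combination. Its groups overlapped too, with differences from control of -0.15 ± 0.13 and -0.11 ± 0.13.

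CDK2, the S phase kinase, was picked for description after its values were seen. Its level was -1.34, -1.34, -1.92 and -1.82 in controls, -2.22, -1.89, -1.92 and -2.18 after dexamethasone and -1.62, -1.90, -1.42 and -1.65 after the combination. All 4 dexamethasone bulls were below the upper pair of controls, but the groups overlapped. Dexamethasone differed from control by -0.45 ± 0.18 (limma adjusted p = 0.334) and by -0.19 within scan day 2. A weaker probe for CDK2 gave -0.22. Cyclin E1 (CCNE1) and cyclin E2 (CCNE2) differed from control by between -0.43 and 0.32 in the 2 treated groups, with limma adjusted p-values of at least 0.648. CCNE2 had its lowest value, -2.53, in combination replicate 4, against -1.16 to -0.39 in the other 11 bulls. CDK6 was well above background only in dexamethasone replicate 1 and combination replicate 1, and its group means were -6.17, -4.78 and -5.29. Within scan day 2 its treated groups differed from the control array by 0.55 and -0.01, and no fold is given, since 3 of 4 values in each treated group were not well above background.

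Among the S phase genes, MCM7 and TK1 separated the dexamethasone bulls from controls, by small differences. MCM7, a subunit of the replicative helicase, read 1.41, 1.27, 1.25 and 1.19 in controls, 0.80, 1.02, 0.72 and 0.97 after dexamethasone and 1.11, 1.08, 1.35 and 1.10 after the combination. Every dexamethasone bull was below every control and every combination bull, while controls and combination overlapped. The difference of dexamethasone from control was -0.40 ± 0.13 (1.32-fold lower), with an interval of -0.70 to -0.11 and a limma adjusted p of 0.235. It was -0.34 within scan day 2. The combination exceeded dexamethasone by 0.28 ± 0.13 (adjusted p = 0.468).

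TK1, thymidine kinase of the nucleotide salvage pathway, read 1.11, 1.09, 1.15 and 1.23 in controls, 1.46, 1.32, 1.68 and 1.55 after dexamethasone and 1.14, 1.53, 1.46 and 1.49 after the combination. Its dexamethasone values all lay above the controls, as did 3 of the 4 combination values. The differences from control were 0.36 ± 0.14 after dexamethasone (1.28-fold, limma adjusted p = 0.318) and 0.26 ± 0.14 after the combination (adjusted p = 0.471). Within scan day 2 they were 0.26 and 0.15. MCM7 and TK1 thus differed from control in opposite directions in the same bulls, and both probes were well above background on all 12 arrays.

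MCM3, another helicase subunit, had the smallest unadjusted p of the members in the first comparison (0.0035), on a dim probe. It read -7.28, -6.79, -5.94 and -6.01 in controls, -4.52, -4.24, -5.17 and -5.99 after dexamethasone and -4.77, -4.93, -5.78 and -5.82 after the combination. Its probe was well above background in 1 control, 2 dexamethasone and 2 combination bulls. The combination values lay above all controls, and the dexamethasone values overlapped them at replicate 4. Differences from control were 1.52 ± 0.42 (2.87-fold, limma adjusted p = 0.145) after dexamethasone and 1.18 ± 0.42 (2.26-fold, adjusted p = 0.323) after the combination. With the normexp background, which compresses dim signals, they were 0.34 and 0.19.

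The other helicase subunits tested differed less from control than MCM3. MCM2 read 0.35, -0.02, 0.41 and 0.36 in controls, 0.56, 0.68, 0.50 and 0.20 after dexamethasone and 0.24, 0.13, 0.47 and 0.25 after the combination, with overlap throughout. Its differences from control were 0.21 ± 0.16 and 0.00 ± 0.16, intervals -0.14 to 0.56 and -0.35 to 0.35. MCM4, described after its values were seen, read -0.74, -0.77, -0.60 and -0.60 in controls, -0.65, -0.78, -0.89 and -1.01 after dexamethasone and -0.51, -0.21, -0.30 and -0.67 after the combination. Its combination values exceeded 3 of the 4 dexamethasone values, and the difference between the treated groups was 0.41 ± 0.15 (limma adjusted p = 0.345), or 0.43 within scan day 2. MCM5 and MCM6 differed from control by between -0.16 and 0.76, with limma adjusted p-values of at least 0.570. MCM6 spread over 2.51 on the log2 scale, reaching -2.14 and -2.19 in dexamethasone replicates 1 and 3 while no other bull exceeded -3.50.

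Of the factors that load the helicase, CDC6 was higher in all 4 combination bulls than in any control. It read -5.88, -5.70, -6.43 and -6.39 in controls, -5.35, -6.45, -5.78 and -5.46 after dexamethasone and -5.15, -4.53, -5.48 and -5.36 after the combination. Dexamethasone values overlapped both other groups. The combination differed from control by 0.97 ± 0.29 (1.96-fold, interval 0.35 to 1.59), with a limma adjusted p of 0.249. The probe was well above background on only 4 arrays, and the difference was 1.33 within scan day 2 and 0.06 with the normexp background. A second, dimmer CDC6 probe, well above background on 0 arrays, gave 0.53. CDT1, the partner of CDC6, and GMNN, the inhibitor of CDT1, were well above background on all arrays. They differed between combination and control by 0.39 ± 0.19 and -0.45 ± 0.26, with limma adjusted p-values of 0.426 and 0.504.

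PCNA, the sliding clamp of DNA polymerases, read -2.09, -2.30, -2.68 and -2.48 in controls, -3.08, -2.55, -3.10 and -2.64 after dexamethasone and -2.70, -2.44, -2.89 and -3.05 after the combination. Its values were lower on average in both treated groups, and all groups overlapped. The differences from control were -0.45 ± 0.20 (1.37-fold lower, limma adjusted p = 0.378) and -0.38 ± 0.20 (adjusted p = 0.459), or -0.43 and -0.19 within scan day 2. RRM2, the regulated subunit of ribonucleotide reductase, was added to the description after its values were seen. It read -6.26, -6.15, -5.20 and -6.06 in controls, -4.79, -6.65, -6.07 and -6.87 after dexamethasone and -5.97, -3.50, -4.30 and -4.27 after the combination. Combination replicates 2 to 4 were the highest of the 12 bulls, and combination replicate 1 lay among the controls.

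The combination differed from control in RRM2 by 1.41 ± 0.53 (2.65-fold, limma adjusted p = 0.339) and from dexamethasone by 1.58 ± 0.53 (adjusted p = 0.306). These were 1.47 and 1.25 within scan day 2, and 0.31 and 0.47 with the normexp background. The RRM2 probe was well above background in only 2 control, 1 dexamethasone and 3 combination bulls. The other subunit, RRM1, which is not limited to S phase, differed from control by -0.25 ± 0.21 in both treated groups. TYMS, thymidylate synthase, differed by 0.06 ± 0.22 after dexamethasone and -0.03 ± 0.22 after the combination, intervals -0.43 to 0.55 and -0.52 to 0.46.

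**Figure D2:**
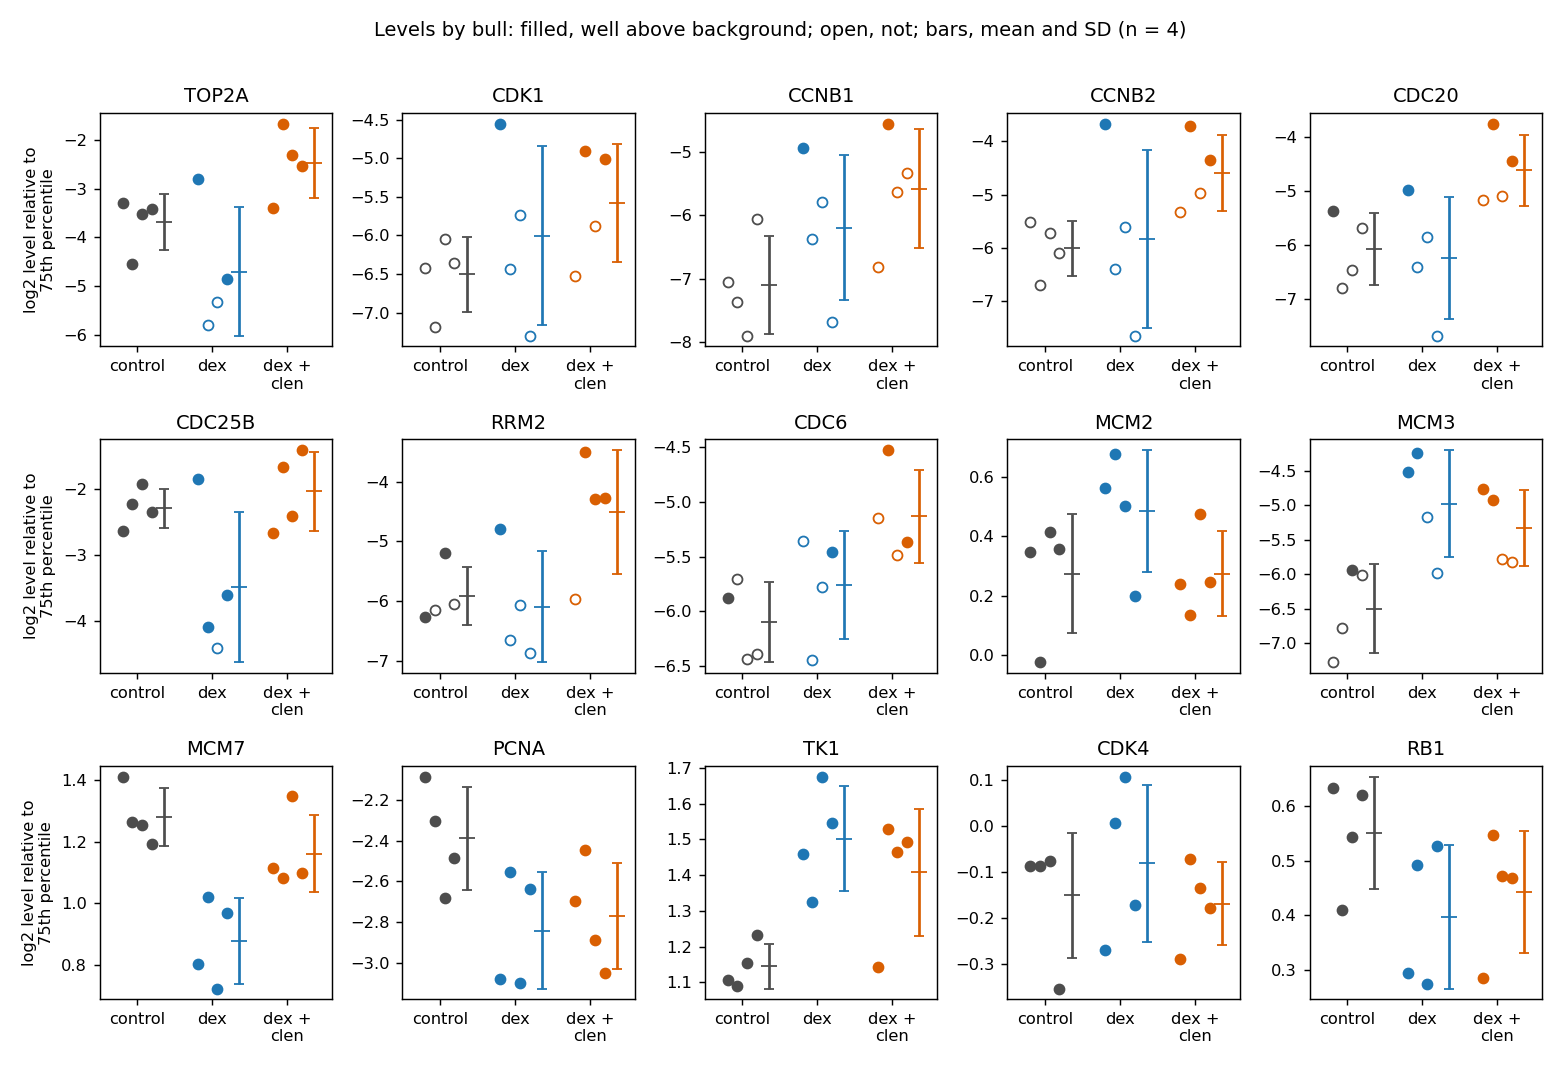
Log2 level of 15 members in every bull, relative to the array's 75th percentile; filled points were well above background and open points were not, and bars give the mean and SD of 4 bulls. MCM7 lay between 0.72 and 1.02 after dexamethasone, below all controls, whereas TOP2A reached -2.81 in dexamethasone replicate 1 and -5.81 to -4.85 in the other 3.

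The mitosis genes varied most between bulls of a group (median SD 0.61). TOP2A, the topoisomerase that untangles chromosomes before they separate, had the widest range of the members over the 12 bulls, 4.14 on the log2 scale. It read -3.30, -4.54, -3.52 and -3.41 in controls, -2.81, -5.81, -5.34 and -4.85 after dexamethasone and -3.39, -1.67, -2.31 and -2.53 after the combination. Dexamethasone replicates 2 to 4 were the lowest of the 12 bulls and combination replicates 2 to 4 the highest, while dexamethasone replicate 1 lay above all controls. The combination exceeded dexamethasone by 2.23 ± 0.58 (4.69-fold, interval 0.97 to 3.48). Its unadjusted p was 0.0022 and its limma adjusted p 0.193, so that it did not pass. The difference was 2.20 within scan day 2 and 0.98 with the normexp background. The TOP2A probe was not well above background in dexamethasone replicates 2 and 3, so the low side of this fold rests partly on dim values.

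Leaving out dexamethasone replicate 1 took the TOP2A difference between the treated groups to 2.86, which passed (limma adjusted p = 0.0311). In that fit 74 genes were called instead of 2. Against control, TOP2A differed by -1.01 ± 0.58 after dexamethasone (adjusted p = 0.513) and by 1.22 ± 0.58 after the combination (adjusted p = 0.425). Without dexamethasone replicate 1 the first of these was -1.64 (limma adjusted p = 0.0741), and 261 genes were called instead of 84.

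CDC25B, the phosphatase that activates CDK1, also had its lowest values in dexamethasone replicates 2 to 4. It read -2.64, -2.23, -1.93 and -2.35 in controls, -1.85, -4.09, -4.40 and -3.60 after dexamethasone and -2.66, -1.66, -2.41 and -1.41 after the combination. Dexamethasone replicates 2 to 4 were lower than all other bulls, and dexamethasone replicate 1 was above all controls, while combination and control bulls overlapped. Dexamethasone differed from control by -1.20 ± 0.48 (2.29-fold lower, limma adjusted p = 0.322), and the combination from dexamethasone by 1.45 ± 0.48 (2.73-fold, adjusted p = 0.296). Within scan day 2 these were -1.09 and 1.20, and with the normexp background -0.60 and 0.79. Without dexamethasone replicate 1 they were -1.74 (limma adjusted p = 0.0210) and 1.99 (adjusted p = 0.0368). For dexamethasone against control that fit called 261 genes, of which 1, CDC25B, was a member. Between the treated groups it called 74, of which 2, CDC25B and TOP2A, were members. The bull left out was the 1 whose CDC25B value stood apart.

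CDC20, the activator of the anaphase-promoting complex, was higher in every combination bull than in any control. It read -5.36, -6.79, -6.45 and -5.68 in controls, -4.98, -6.40, -5.85 and -7.67 after dexamethasone and -5.17, -3.75, -5.09 and -4.44 after the combination. Dexamethasone replicate 1 again lay within the combination range, and the other 3 dexamethasone bulls below it. The combination differed from control by 1.46 ± 0.53 (2.75-fold, limma adjusted p = 0.325) and from dexamethasone by 1.62 ± 0.53 (3.07-fold, adjusted p = 0.292). The probe was well above background only in control replicate 1, dexamethasone replicate 1 and combination replicates 2 and 4. Within scan day 2 the differences were 1.02 and 1.08, and with the normexp background 0.20 and 0.38.

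CDK1 and the B cyclins that switch it on were well above background in no control bull. CDK1 read -6.42, -7.18, -6.05 and -6.35 in controls, -4.55, -6.43, -5.73 and -7.30 after dexamethasone and -6.52, -4.91, -5.87 and -5.01 after the combination. Only its values in dexamethasone replicate 1 and combination replicates 2 and 4 were well above background. CCNB2 (cyclin B2), chosen after its values were seen, was well above background in the same 3 bulls. Their CCNB2 levels were -3.66, -3.70 and -4.36, and no other bull exceeded -4.98.

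CCNB1 (cyclin B1) read -7.04, -7.36, -7.90 and -6.06 in controls, -4.94, -6.37, -5.79 and -7.67 after dexamethasone and -6.81, -4.55, -5.63 and -5.32 after the combination. It was well above background in dexamethasone replicate 1 and combination replicate 2. The group means for control, dexamethasone and combination were -6.50, -6.00 and -5.58 for CDK1, -7.09, -6.19 and -5.58 for CCNB1 and -6.01, -5.83 and -4.59 for CCNB2. Within scan day 2 the combination differed from the control array by 0.59, 0.40 and 1.44, and dexamethasone by 0.78, 0.36 and 0.88, in the same order of genes. None of the 3 genes was tested, and no fold is given, since most of these values were not well above background.

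Of the remaining mitosis members, AURKA, the centrosome kinase, was described after its values were seen. It read -3.41, -4.25, -3.68 and -4.15 in controls, -3.44, -3.07, -3.93 and -3.70 after dexamethasone and -3.44, -3.13, -3.40 and -3.47 after the combination. The groups overlapped, and the combination differed from control by 0.51 ± 0.23 (limma adjusted p = 0.401). AURKB, its relative at the centromere, differed by -0.27 ± 0.20 and was the 1 mitosis member of the 10 tested that was lower in the combination than in controls. CCNA2 (cyclin A2), UBE2C, the ubiquitin-conjugating enzyme of the anaphase-promoting complex, and BIRC5 (survivin) differed between combination and control by 1.04 ± 0.60, 0.58 ± 0.37 and 0.31 ± 0.40. Their probes were well above background on 7, 11 and 10 arrays. A second UBE2C probe, well above background on 1 array, gave -0.15 against control and -0.36 against dexamethasone. A second BIRC5 probe, well above background on 11 arrays, gave 0.52 and 0.55. MAD2L1, of the spindle checkpoint, and PLK1, a mitotic kinase, differed by 0.07 ± 0.26 and 0.07 ± 0.22, with probes well above background on all arrays.

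**Figure D3:**
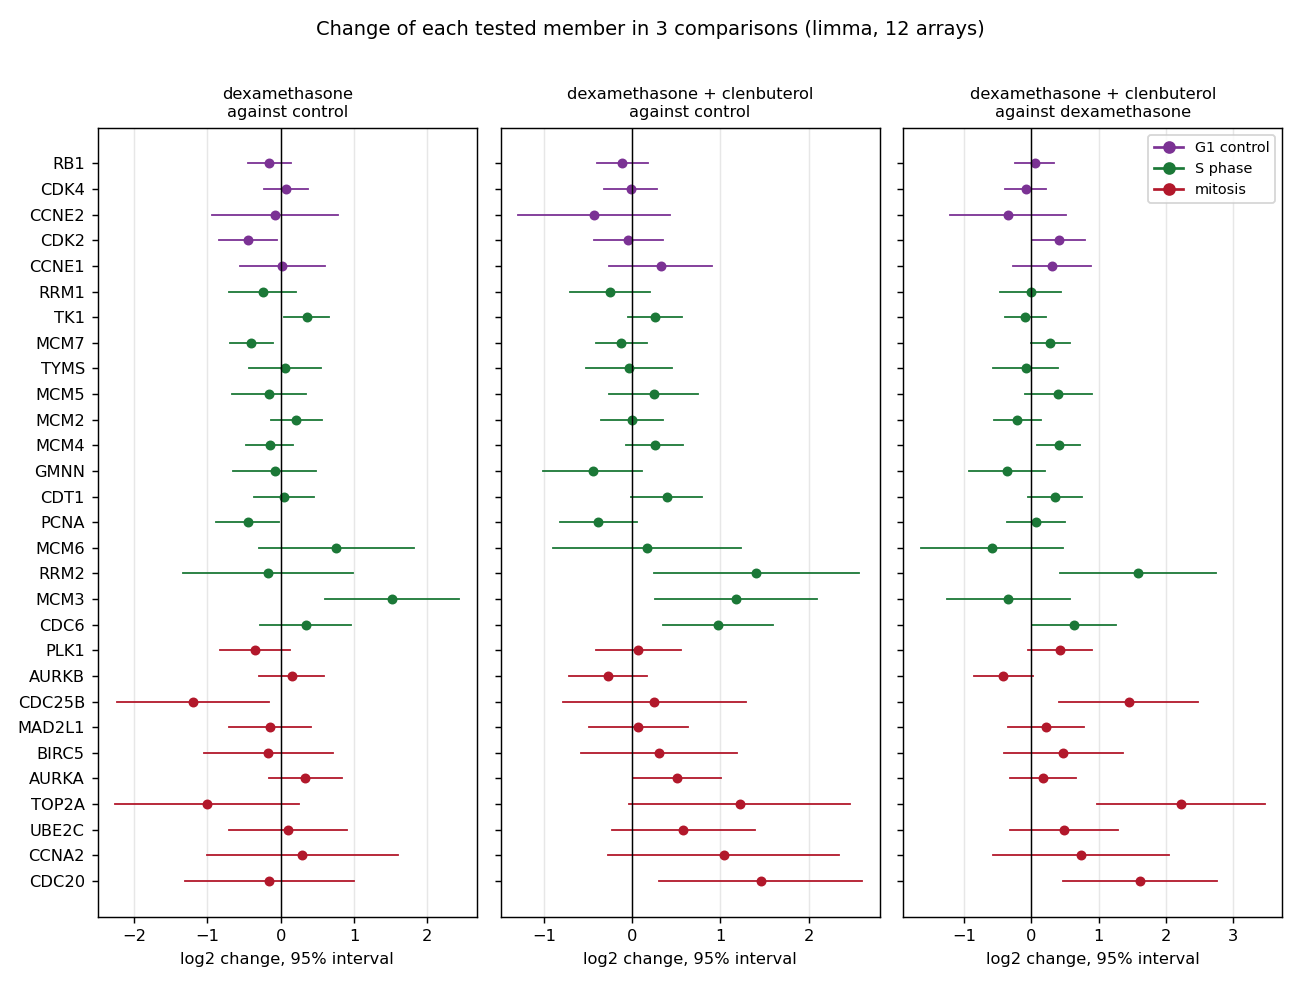
Log2 difference of each tested member with its 95% interval in the 3 comparisons, from the limma fit on 12 arrays; colours give the role. TOP2A between the treated groups was the largest difference at 2.23, and 9 of 10 mitosis members lay above 0 in both comparisons that include the combination.

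The median of the mitosis members lay further from that of all genes in both comparisons that include the combination than after dexamethasone alone. For dexamethasone against control, the median log2 difference was -0.08 over the 29 members and 0.03 over all genes tested, with 13 members above 0 and 16 below. It was -0.08 for G1 control, -0.02 for S phase and -0.15 for mitosis. For the combination against control, the median was 0.24 over the members beside 0.03 over all genes, with 19 above 0. The role medians were -0.04, 0.21 and 0.41, and 9 of the 10 mitosis members were above 0. Between the treated groups the members' median was 0.28 beside 0.02 over all genes, with role medians of 0.05, 0.03 and 0.48, and 9 of 10 mitosis members were above 0.

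These medians carry no test. Over the 17 members well above background on all 12 arrays, the median was -0.15 for dexamethasone against control, -0.03 for the combination against control and 0.05 for the combination against dexamethasone. With the normexp background and all 29 members, the medians of both comparisons that include the combination were 0.04 and 0.11. The 3 mitosis members that were measured on all arrays, AURKB, MAD2L1 and PLK1, had medians of -0.15, 0.07 and 0.22 in the 3 comparisons.

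Bulls differed within their groups along the mitosis genes. The mean over the 10 tested mitosis members, each taken relative to its own mean over the 12 arrays, was 0.13, -0.36, -0.07 and -0.11 in controls, 0.19, -0.38, -0.48 and -0.61 after dexamethasone and -0.01, 0.87, 0.36 and 0.46 after the combination. Combination replicates 2 to 4 were the 3 highest and dexamethasone replicates 2 to 4 the 3 lowest, while dexamethasone replicate 1 and combination replicate 1 lay among the controls or next to them. The number of mitosis members well above background, of 16, was 10, 8, 9 and 6 in controls, 13, 7, 4 and 8 after dexamethasone and 8, 13, 9 and 12 after the combination. Without TOP2A, control replicate 2 (-0.30) lay below dexamethasone replicate 2 (-0.17), and combination replicates 2 to 4 remained the 3 highest. The means of these 9 ran from -0.30 to 0.11 in controls, -0.54 to 0.12 after dexamethasone and -0.03 to 0.75 after the combination. The 14 S phase members spanned less, from -0.23 to -0.05, from -0.19 to 0.21 and from -0.09 to 0.44.

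Markers of other cell types also varied between these bulls. The mean relative level of 11 fibroblast markers, all 11 of the list, was 0.36 to 0.80 in controls, 0.55, -0.52, -1.07 and -1.40 after dexamethasone and -0.57, 0.39, -0.16 and 0.62 after the combination. All 11 had a negative difference after dexamethasone (median -1.19). The limma test called 0 of them, and 6 had an unadjusted p under 0.05, beside 12.3% of all genes. For 12 of 16 leukocyte markers tested, the mean was 0.21 to 0.44 in controls, 0.43, -0.75, -0.74 and -0.20 after dexamethasone and -0.17, -0.02, -0.05 and 0.26 after the combination. After dexamethasone 9 of these 12 were lower and 3 higher than in controls. CD3E, a T cell receptor component, was the 1 leukocyte marker that passed, falling after dexamethasone (-1.74 ± 0.31, limma adjusted p = 0.0311). CD163 differed by -2.73 ± 0.62 (adjusted p = 0.078) and PTPRC, the leukocyte-wide CD45, by -0.77 ± 0.31 (adjusted p = 0.338). In the means of both lists dexamethasone replicate 1 lay in or beside the control range and the other 3 dexamethasone bulls below it. CD3E itself was low in all 4, at -4.74, -4.58, -5.45 and -4.54, against -3.51 to -2.43 in controls. The part of these markers in the cell cycle values was not tested.

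Markers of endothelial cells (9 of 9 tested) ranged from -0.32 to 0.09 in controls, -0.27 to 0.40 after dexamethasone and -0.05 to 0.32 after the combination. Those of satellite cells (5 of 6 tested) ranged from -0.61 to -0.08, from 0.13 to 0.46 and from -0.24 to 0.33. Of both lists, limma called 0 genes in any comparison. At an unadjusted p under 0.05 there were between 1 and 4 per list and comparison, beside 11.0% to 12.3% of all genes. After dexamethasone 4 satellite cell markers were higher and 1 lower than in controls (median 0.20). MYOD1, a myogenic factor of activated satellite cells, differed by 1.33 ± 0.31 (limma adjusted p = 0.083), MYOG by 2.00 ± 0.59 (adjusted p = 0.170) and CDH15 by 0.20 ± 0.17. MEGF10 averaged -1.91 in controls and -2.27 after dexamethasone. Between the treated groups 2 were higher and 3 lower in the combination, with MYOD1 at -1.09 ± 0.31 (limma adjusted p = 0.228). Red cell markers (2 of 4 tested) ranged from -0.53 to 0.60 in controls, -1.57 to 0.56 after dexamethasone and -1.02 to 2.05 after the combination. Fibre markers (9 of 11 tested) ranged from -0.198 to 0.035 in controls, -0.483 to 0.216 after dexamethasone and -0.394 to 0.516 after the combination. The lowest fibre means were those of dexamethasone replicate 1 (-0.483) and combination replicate 2 (-0.394). Their part in the cell cycle values was not tested either.

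**Figure D4:**
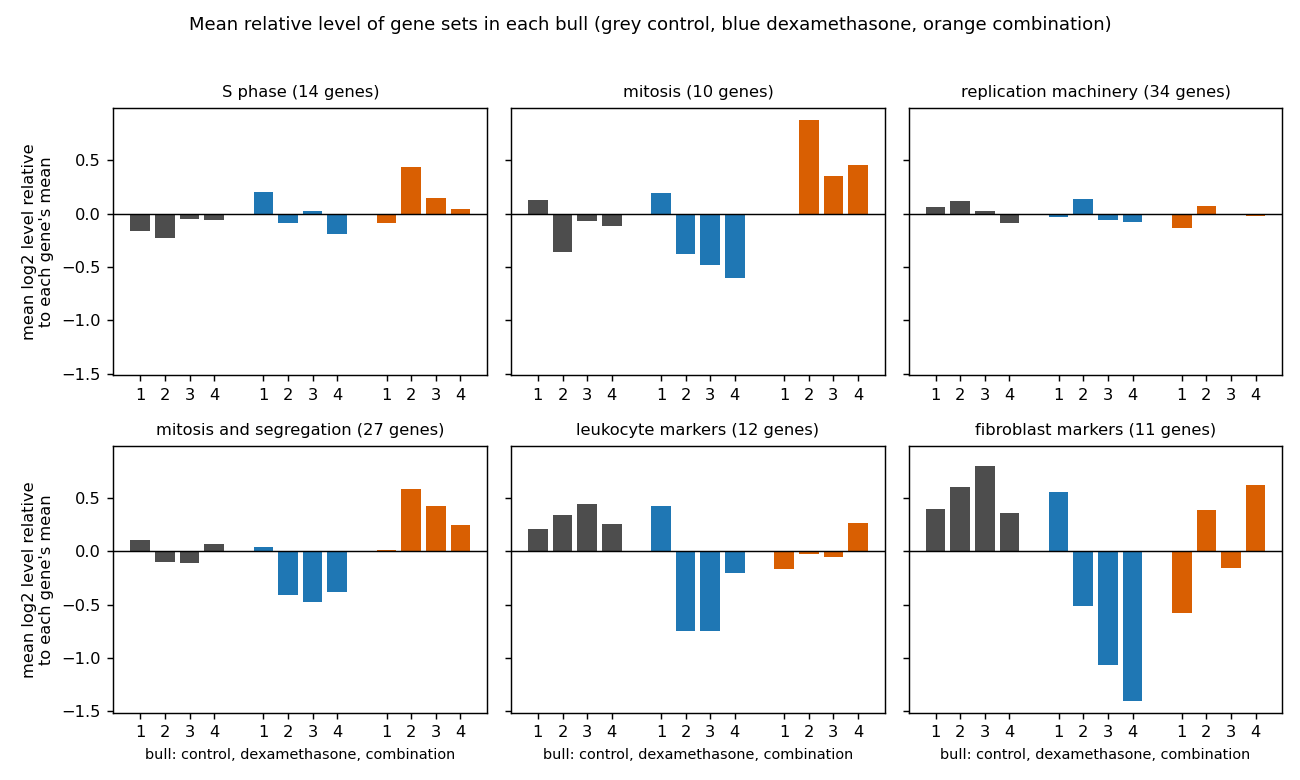
Mean log2 level of 6 gene sets in each bull, each gene relative to its own mean over the 12 arrays; bars are bulls in replicate order within control (grey), dexamethasone (blue) and combination (orange). Mitosis members and the wider mitosis list were lowest in dexamethasone replicates 2 to 4 and highest in combination replicates 2 to 4, and the fibroblast and leukocyte markers were also low in those 3 dexamethasone bulls.

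Wider lists of pathway genes that are not members were described the same way. Of 41 genes of the replication machinery (origin recognition, GINS, polymerases, clamp loader and others), 34 were tested and limma called 0 in any comparison. At an unadjusted p under 0.05 there were 4 for dexamethasone against control, 6 for the combination against control and 1 between the treated groups. The shares of all genes tested were 12.3%, 12.1% and 11.0%. The medians of the 34 genes were -0.08, -0.06 and 0.01 in the same order. Of 46 further genes of mitosis and chromosome segregation, 27 were tested and limma called 0. Here 2, 5 and 12 genes had an unadjusted p under 0.05, beside the same shares of all genes. The 12 were all higher in the combination than after dexamethasone, as were 913 of all 1504 genes with such a p. The list's medians were -0.18 for dexamethasone against control, 0.33 for the combination against control and 0.48 between the treated groups, with 7, 19 and 22 of the 27 above 0. Per bull, the mean of this list was -0.48 to 0.04 after dexamethasone, -0.11 to 0.10 in controls and 0.01 to 0.58 after the combination.

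The 3 genes of smallest p in that list between the treated groups were CDCA3, CKS2 and KIF23. CDCA3, a cell division cycle associated protein, differed by 2.27 ± 0.57 (limma adjusted p = 0.180). It read -3.90, -4.00, -3.86 and -3.60 in controls, -3.05, -5.89, -5.87 and -5.14 after dexamethasone and -3.84, -1.91, -2.74 and -2.37 after the combination. Dexamethasone replicates 2 to 4 were its lowest bulls and combination replicates 2 to 4 its highest. CKS2, a small subunit that binds CDKs, differed by 1.87 ± 0.48 (adjusted p = 0.193), and KIF23, a kinesin of cell separation, by 1.60 ± 0.45 (adjusted p = 0.226). The probes of CDCA3, CKS2 and KIF23 were well above background on 10, 11 and 9 arrays, and in 2, 3 and 2 dexamethasone bulls. Under other processing settings the lowest differences were 0.86, 1.18 and 0.58. Without dexamethasone replicate 1, CDCA3 (2.92, limma adjusted p = 0.0304) and KIF23 (2.07, adjusted p = 0.0368) passed, among 74 genes called in that fit.

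Of 17 genes for E2F factors, their partners and the relatives of RB1, 12 were tested and limma called 0. At an unadjusted p under 0.05 there were 1, 2 and 4, beside 12.3%, 12.1% and 11.0% of all genes in the 3 comparisons. Of the 4 between the treated groups, 2 were higher in the combination. E2F2, an activating E2F, differed by 1.40 ± 0.45 (limma adjusted p = 0.290), on a probe well above background on 9 arrays. Under other processing settings this ran from 0.41 to 1.66. E2F5 and E2F3 were lower, at -0.51 ± 0.18 and -0.49 ± 0.20 (limma adjusted p = 0.328 and 0.402). Their probes were well above background on all 12 arrays. Among 10 D cyclins and CDK inhibitors, 8 were tested and 1 was called. CCND3 (cyclin D3), a partner of CDK4 and CDK6, read 1.42, 1.04, 1.28 and 1.54 in controls, 0.38, 0.16, 0.24 and 0.10 after dexamethasone and 1.09, 1.09, 0.74 and 1.05 after the combination. Every dexamethasone bull, replicate 1 included, was below every other bull.

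CCND3 fell by 1.10 ± 0.15 on the log2 scale after dexamethasone (limma adjusted p = 0.00926), beside 0.615% of genes called in that comparison. With scan day as a block the difference was -1.28 and no longer passed (adjusted p = 0.190), in a fit that called 0 genes. After the combination CCND3 differed from control by -0.33 ± 0.15 (adjusted p = 0.417). The inhibitor CDKN1A (p21) differed from control by -0.35 ± 0.46 and 0.23 ± 0.46 in the 2 treated groups, and CDKN1C (p57) by 0.40 ± 0.32 and 0.41 ± 0.32, with limma adjusted p-values of at least 0.625. The inhibitor CDKN2B differed by 0.93 ± 0.51 and -0.53 ± 0.51, and by -1.46 ± 0.51 between the treated groups (limma adjusted p = 0.327). Its probe was well above background on 4 arrays. CCND1 (cyclin D1) differed from control by -0.57 ± 0.30 and -0.56 ± 0.30 (limma adjusted p = 0.461 and 0.463).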

How the data were processed

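The deposited scanner files hold spot intensity on a linear scale, written by Agilent Feature Extraction 9.5.1.1, per the file headers. A value table deposited by the authors also holds intensity. No source used here says how it was made, and its log2 served as an alternative. Log2 of the processed signal was taken, outlier spots (1 to 6 per array) were left out, each array's 75th percentile was subtracted, and spots of a probe were averaged. Saturated spots (3 to 10 per array) were kept. The filter kept 14703 of 21475 probes, those well above background on 4 or more arrays, and each gene was represented by its brightest one, leaving 13653 genes. Names were updated through a RefSeq gene table. 5 members were named through their human match. No sequences were used here.

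The comparisons used limma 3.58.1 in R 4.3.3, with 3 group means on all 12 arrays and Benjamini-Hochberg adjustment over all genes in each comparison. P-values are two-sided. The fit was tested on simulated data (20 simulations, 200 changed genes, 7.55 false calls on average). The precision is limited by the number of arrays, 4 per group. Slide and scan day are those of the file headers. For dexamethasone replicate 4 the code in the label names a different slide.

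The members and lists were chosen with earlier results of these data known. Values per bull are given for members called, members whose groups did not overlap, the 3 members of smallest p in each comparison, and TOP2A, CDK1, CCNB1, PCNA, MCM2, CDK4 and RB1. Any other member given in full is marked as chosen after its values were known. For wider lists, called genes and the 3 of smallest p were eligible to be named. CDKN1C was named outside this rule. Alternatives covered the normalization, the background, the filter, the choice of probe, scan day, slide, the arrays fitted, and each array left out.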

Additional observations from a re-analysis of the deposited data

Results flagged for a closer look

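In 6 of the 87 groups of 4 bulls tested, 1 bull lay far from the other 3 by Dixon's criterion, which chance meets in about 1 of 20 groups. CDK4 was -0.35 in control replicate 4, against -0.09 to -0.08 in the other controls. MCM2 was -0.02 in control replicate 2, against 0.35 to 0.41. MCM5 was 0.62 in control replicate 4, against 0.26 to 0.32. TYMS was 0.56 in control replicate 2, against 1.17 to 1.26. MCM7 was 1.35 in combination replicate 3, against 1.08 to 1.11. TK1 was 1.14 in combination replicate 1, against 1.46 to 1.53. All 6 probes were well above background on all 12 arrays, and no cause was tested.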

How the results depend on the processing

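Of 1615 recomputed differences of named genes, 1581 kept their sign and their side of the threshold, 5 were newly called, 28 changed sign and 1 lost its call. The 5 new calls all came from leaving out dexamethasone replicate 1, and the lost call was CCND3 with scan day as a fixed block (-1.28). The number of genes called for dexamethasone against control was 84, and was 25 with no filter on dim probes, 13 with scan day 2 against the rest as a block and 0 under scan day as a fixed block. Leaving out single bulls gave 24 to 261. For the combination against control it was 6, and was 3 with quantile normalization or only the 2 groups compared, 2 with the mean of a gene's probes, and 0 with no filter, with probes well above background on all 12 arrays, with either scan block or with slide as a random block. Leaving out single bulls gave 0 to 11. Between the treated groups it was 2, and was 1 with normexp or with probes on all 12 arrays, and 0 with quantile normalization, no filter, the mean of probes, either scan block, slide or only 2 groups. Leaving out single bulls gave 0 to 74. Members called ranged from 0 to 1, 0 to 0 and 0 to 2 when single bulls were left out. The median of the members was 0.056 for dexamethasone against control with no filter, where the median over all genes was 0.14. For the combination against control it was 0.037 with normexp and -0.032 with probes on all 12 arrays, and between the treated groups 0.12 with quantile normalization, 0.11 with normexp and 0.046 with probes on all 12 arrays.

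Differences near 0 changed sign. For dexamethasone against control, CDC6 was -0.14 with normexp and -0.12 in the deposited value table, and RRM2 was 0.22 with scan day as a fixed block. For the combination against control, MCM2 was -0.0018 with quantile normalization, -0.0013 in the value table, -0.089 under the 2-level block and -0.076 under scan day, CDK4 was 0.0053 and 0.19 with those blocks, and CDK2 was 0.18 with scan day. Between the treated groups, PCNA was -0.0006 in the value table. With single bulls left out, CDC20 ran from -0.57 to 0.32 and RRM2 from -0.61 to 0.081 for dexamethasone against control, CDK4 from -0.085 to 0.022, CDK2 from -0.15 to 0.048 and MCM2 from -0.10 to 0.047 for the combination against control, and PCNA from -0.037 to 0.17 between the treated groups. The cause of these changes was not tested. Scan day as a fixed block rests on the 7 arrays of day 2, with 1 control among them. No paired analysis was possible because the labels give no replicate numbers and each array is a separate animal.

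Dim signal limits the mitosis genes most: 6 of 16 with a probe were not tested, and 7 more were not well above background on every array.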
